A study of Mus musculus with 8 samples.

Results

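The 8 genes described here carry dietary iron and folate into and through the absorptive cells of the small intestine, and all 8 were found by symbol among the 56980 gene identifiers counted in the jejunal mucosa of Adipoq-F2-KO mice and floxed controls. They were Slc11a2, Cybrd1 and Slc46a1, which act at the luminal side, Fth1 and Ftl1, which store iron, Slc40a1 and Heph, which release it, and Tfrc, which takes up iron bound to transferrin. The members share a function, and the rule that groups them uses no measured value, although it was written with earlier results of these data known. Adipoq-F2-KO mice lack the free fatty acid receptor FFA2 in fat cells, because Cre recombinase is driven by the adiponectin promoter in animals that carry floxed FFA2 alleles. FFA2 fl/fl littermates, co-housed from birth, served as floxed controls. All animals were male, entered the diet at 12 weeks of age, received a Western diet with 10% fructooligosaccharides for 2 weeks and lived at thermoneutrality. Mucosa was scraped from the jejunum, so each of the 4 libraries per genotype holds a mixture of cells. The receptor was deleted outside this tissue, and Ffar2 itself had 2 to 18 counts per library here, which does not check the genotype.

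Iron and folate enter the body through the epithelium of the proximal small intestine. A brush border reductase (Cybrd1) converts ferric to ferrous iron, a proton-coupled transporter (Slc11a2, also DMT1) carries it across the apical membrane, ferritin stores what is held back, and ferroportin (Slc40a1) exports the rest, which the copper oxidase hephaestin (Heph) converts for binding to transferrin. Folate uses a separate proton-coupled transporter, Slc46a1 (PCFT), at the same apical surface. Several of these transcripts are set by iron itself, through iron regulatory proteins (Aco1, Ireb2) that bind a short hairpin in the untranslated regions, the iron-responsive element: bound to a 5′ UTR it lowers translation, and bound to the 3′ UTR of Tfrc it stabilizes the transcript. Intestinal Slc11a2, Cybrd1 and Slc40a1 are also known targets of the oxygen-sensing factor HIF-2α (Epas1).

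The elements are shown because they separate the 8 genes into those with a place for direct iron control of the kind searched and those where none was matched. GENCODE M21 transcripts (GRCm38) were searched on the sense strand for a C, 5 paired bases (G-T pairs allowed), the loop CAGTG followed by any base but G, and 5 bases closing the stem, lying inside a UTR. Of 22527 genes with a coding transcript, 133 (0.59%) held such a match, and 4 of the 8 members did. In the lines that follow, 30 bases are given 5′ to 3′ on the strand of the gene, with the loop of 6 bases in capitals.

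Fth1 5′ UTR, chr19:9982731-9982760, plus strand: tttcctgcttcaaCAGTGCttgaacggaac

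Ftl1 5′ UTR, chr7:45459779-45459808, minus strand: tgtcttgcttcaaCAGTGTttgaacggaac

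Slc40a1 5′ UTR, chr1:45925465-45925494, minus strand: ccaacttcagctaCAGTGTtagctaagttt

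Tfrc 3′ UTR, chr16:32631218-32631247, plus strand: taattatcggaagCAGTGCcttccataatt

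Tfrc 3′ UTR, chr16:32631597-32631626, plus strand: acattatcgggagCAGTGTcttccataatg

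Tfrc 3′ UTR, chr16:32631662-32631691, plus strand: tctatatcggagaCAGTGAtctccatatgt

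Tfrc 3′ UTR, chr16:32631709-32631738, plus strand: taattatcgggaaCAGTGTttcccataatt

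The ferritin genes and the exporter Slc40a1 each carried 1 element ahead of the coding sequence, and Tfrc carried 4 behind it. No match of this form was found in Slc11a2, Cybrd1, Heph or Slc46a1, which says only that these letters are not in the annotated UTRs. An element with another form of stem would be missed, so the result does not place Slc11a2 outside iron control. Slc11a2 is paired with Tfrc further on because a 3′ element is attributed to both.

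The libraries held 6007654 to 21712776 counts. The shallow ones were floxed control 3 and Adipoq-F2-KO 3 and 4, at 6007654, 6102595 and 6541595, and the other 5 (3 floxed controls and 2 Adipoq-F2-KO) had at least 15204995. The 3 shallow libraries also had the ileal bile acid binding gene Fabp6 at 140 to 942 normalized counts (raw counts scaled by the size factors of DESeq2) against 0.774 to 3.95 in the deep ones, while the proximal regulator Gata4 ranged from 1138 to 2185 over all 8. The villus enterocyte list was present in full, with a summed level of 773006 to 843811 normalized counts in floxed controls and 778371 to 854079 in Adipoq-F2-KO. The smooth muscle list varied far more, from 285 to 22608 in floxed controls and from 528 to 7864 in Adipoq-F2-KO. Hemoglobin transcripts were near or at 0, with Hba-a2 and Hbb-bt at 0 in all libraries. The titles number mouse samples, and p-values set the difference between genotypes against the spread between these samples.

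Per exon length, the ferritin heavy chain and the ferroxidase Heph stood highest and the apical reductase and the iron exporter lowest. Fth1 reached 282 ± 71.0 CPM (counts scaled to a fixed library total) per exon kilobase (SD, n = 8), with 100 of 15708 tested genes above it. Heph followed at 76.5 ± 4.16 and varied least of the 8 genes, with a coefficient of variation of 5.44% over the 8 libraries. Slc46a1 was next at 41.6 ± 12.8, then Tfrc at 16.1 ± 3.69 and Slc11a2 at 8.75 ± 1.04.

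A wide step separated these 5 from the other 3 genes on the same per-kilobase scale. Slc11a2 was 6.57-fold above Ftl1, which stood at 1.33 ± 0.623. The place of Ftl1 is uncertain. Of the 75-base stretches of its first listed transcript 84.8% also occur in other genes, 2 of which overlap it. A loss of reads with several matches would lower its level. Slc40a1 had 0.336 ± 0.144 and Cybrd1 0.150 ± 0.0786, and 14492 and 15475 of the 15708 tested genes had higher means. The ranges of Fth1, Heph, Slc46a1 and Tfrc did not meet one another, and neither did those of Slc11a2 and Ftl1. The ranges of Tfrc and Slc11a2 overlapped (9.94 to 21.4 against 7.17 to 10.2), as did those of Ftl1 and Slc40a1 and those of Slc40a1 and Cybrd1, although the upper gene of each pair was the higher in 8 of 8 libraries. Exon length was the union of all annotated exons, which can exceed that of the transcript in use.

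**Figure D1:**
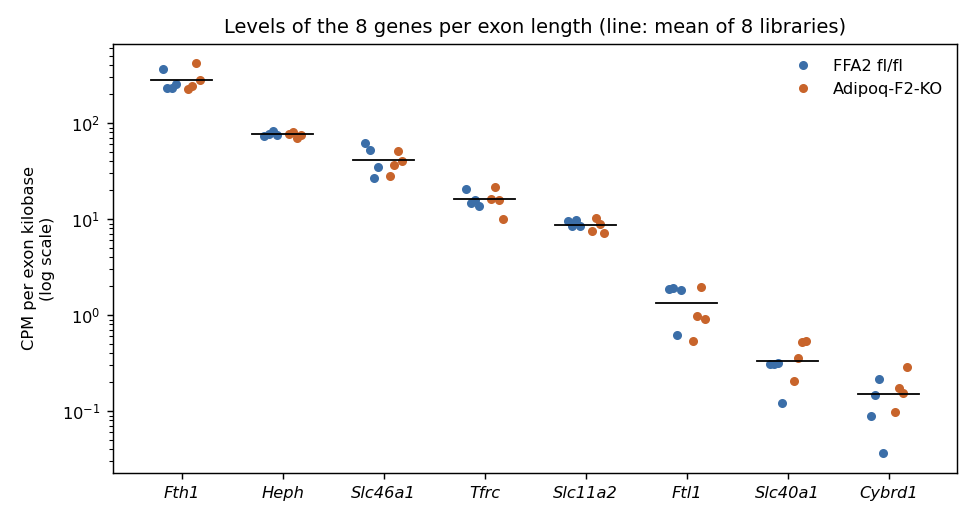
CPM per kilobase of exon (log scale) for the 8 genes, with 1 point per library (blue, FFA2 fl/fl; orange, Adipoq-F2-KO; n = 4 each) and a line at the mean of 8 libraries. The genes run from Fth1 at 282 to Cybrd1 at 0.150, and the points of both genotypes overlap at each gene.

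The comparison of Adipoq-F2-KO with floxed controls asked whether loss of FFA2 in fat cells went with a change in these transcripts. None of the 7 members with enough counts to be tested was called (DESeq2 Wald test, Benjamini-Hochberg adjusted p = 0.9998 for each), and Cybrd1 was too low to enter the test. Over all 15986 genes tested, 6 were called, or 0.0375%. At an unadjusted p below 0.05 there were 0 of the 7 members against 3.03% of all tested genes, and 0 of the 8 separated the genotypes without overlap against 2.12%. Log2 fold changes were above 0 for 2 of the 7 and below 0 for 5, with a median of -0.04 where the median of all tested genes was -0.01. In a mixed tissue, fewer cells of a type and less RNA per cell cannot be told apart.

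**Figure D2:**
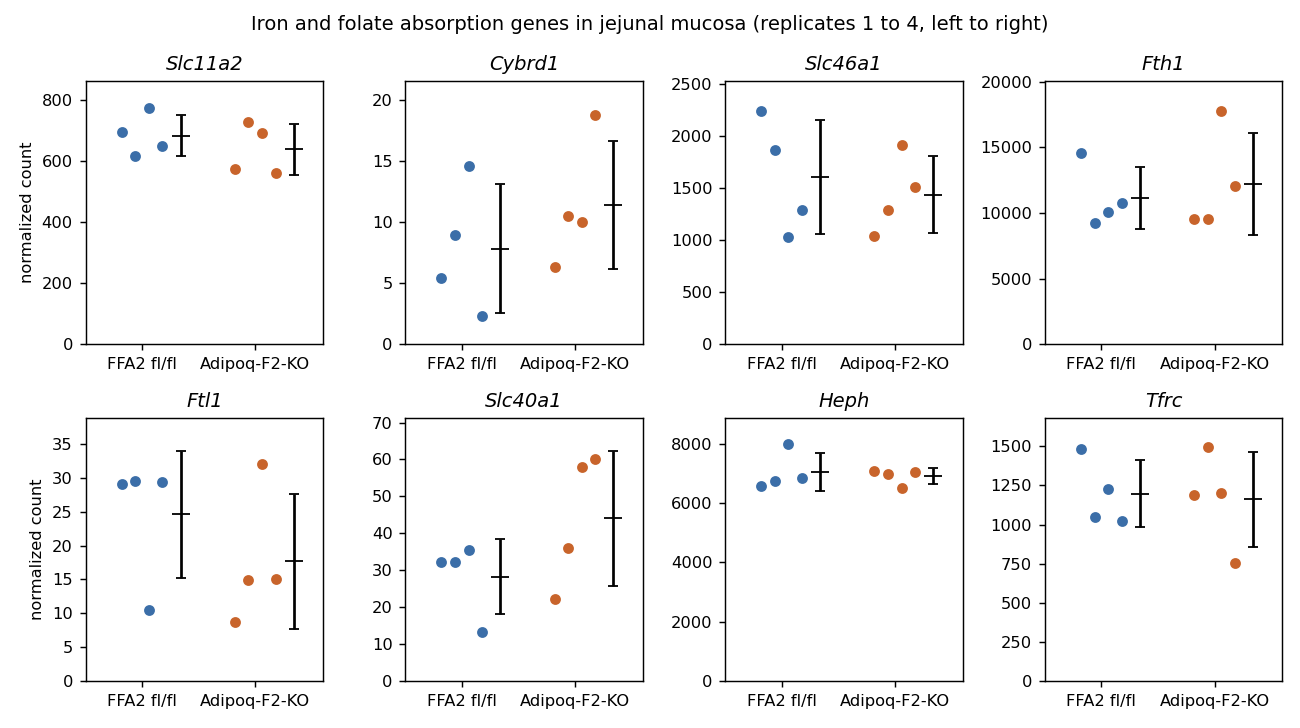
Normalized counts of each member in every library (replicates 1 to 4 from left to right in each genotype), with the mean and SD of each group of 4 beside the points and axes that start at 0. The points of the 2 genotypes overlap in all 8 panels.

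Slc11a2 (chr15:100387898-100425072), the apical ferrous iron transporter, had 697, 617, 774 and 650 normalized counts in floxed controls 1 to 4 and 575, 728, 693 and 560 in Adipoq-F2-KO 1 to 4. Adipoq-F2-KO 1 and 4 were below all floxed controls, and the other 2 lay within their range. The mean was 684 ± 68.1 (SD, n = 4) against 639 ± 83.9, a fold of 0.938 with a 95% interval of 0.784 to 1.12 (DESeq2, unadjusted p = 0.490). Its exons overlap those of Gm5475 on the opposite strand over 402 bp, a gene with 149 counts in all against 6077 for Slc11a2.

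Cybrd1 (chr2:71117923-71142926), the duodenal ferric reductase, was close to the limit of detection. It had 9, 17, 7 and 3 raw counts in floxed controls 1 to 4 and 8, 17, 5 and 10 in Adipoq-F2-KO 1 to 4, and only 3 libraries reached the 10 counts required in at least 4. Normalized, these were 5.45, 8.96, 14.6 and 2.32 against 6.32, 10.5, 10.0 and 18.8. The groups overlapped, with the lowest value in floxed control 4 and the highest in Adipoq-F2-KO 4. An exact two-sided permutation test of the log2 values gave p = 0.343 (n = 4 and 4, where the smallest p possible is 0.0286), so no difference was detectable at this depth.

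The few Cybrd1 reads moved with the smooth muscle list. Over the 8 libraries, log2 Cybrd1 and the mean log2 level of the smooth muscle list had Pearson's r = 0.877 (exact permutation p = 0.00412, adjusted over 8 members p = 0.0329) and Spearman's rho = 0.905 (exact permutation p = 0.00456, adjusted p = 0.0365). Leaving out floxed controls 3 and 4, the libraries farthest from the median score, r was 0.897, and within the 5 deep libraries it was 0.845. The 3 shallow libraries were too few for a value of their own. The other 7 members had r between -0.403 (Ftl1) and 0.649 (Heph), and none passed the adjustment (permutation test, adjusted p = 0.269 or more). No correlation with the macrophage list was tested. That list had the same 3 lowest libraries as Cybrd1 (floxed controls 4 and 1 and Adipoq-F2-KO 1) and the same highest (Adipoq-F2-KO 4). Floxed control 3 differed. Its Cybrd1 value, 14.6, was above all but Adipoq-F2-KO 4, while its macrophage sum, 404, was below floxed control 2 and Adipoq-F2-KO 2 and 3. Whether the Cybrd1 reads came from cells outside the epithelium was not tested.

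**Figure D3:**
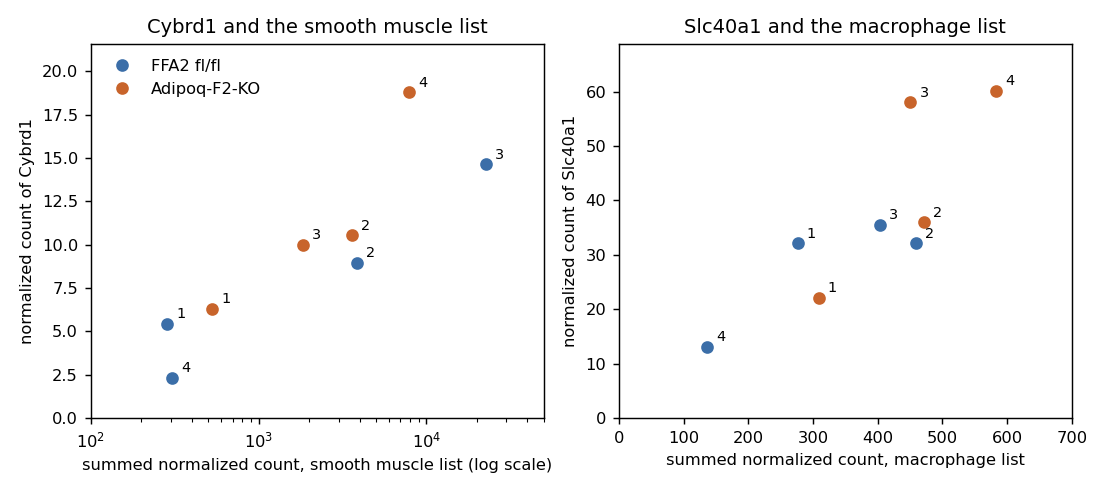
Left, normalized count of Cybrd1 against the summed normalized count of the smooth muscle list (log scale). Right, normalized count of Slc40a1 against that of the macrophage list; points are libraries, numbered by replicate (blue, FFA2 fl/fl; orange, Adipoq-F2-KO). Cybrd1 runs from 2.32 to 18.8, and floxed control 4 is lowest for both Slc40a1 and the macrophage list.

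Slc46a1 (chr11:78465697-78472059), the proton-coupled folate transporter, had 2237, 1866, 1031 and 1286 normalized counts in floxed controls 1 to 4 and 1036, 1285, 1912 and 1513 in Adipoq-F2-KO 1 to 4. Each genotype had both high and low libraries, and every Adipoq-F2-KO value lay inside the range of the floxed controls. The mean was 1605 ± 547 (SD, n = 4) against 1436 ± 372, a fold of 0.893 with a 95% interval of 0.632 to 1.26 (DESeq2, unadjusted p = 0.518).

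In the 5 deep libraries alone, the 3 floxed controls stood above the 2 Adipoq-F2-KO for Slc46a1, the closest values being 1286 and 1285. The log2 fold change there was -0.63 ± 0.24 (SE, DESeq2 unadjusted p = 0.00921, adjusted p = 0.345). Among all tested genes 5.4% had an unadjusted p below 0.05 and 23.6% did not overlap in those 5 libraries, against 2 (Slc46a1 and Ftl1) and 3 (these and Heph) of the members. With the distal small intestine list as a covariate over all 8 libraries the Slc46a1 change was 0.00. The reduced folate carrier Slc19a1, the other main folate transporter, was lower, with Slc46a1 8.49- to 15.1-fold above it per exon length.

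Fth1 (chr19:9980598-9985098), the ferritin heavy chain with ferroxidase activity, had 14548, 9201, 10086 and 10721 normalized counts in floxed controls 1 to 4 and 9512, 9521, 17753 and 12019 in Adipoq-F2-KO 1 to 4. Floxed control 1 and Adipoq-F2-KO 3 stood above the other 6. The mean was 11139 ± 2357 (SD, n = 4) against 12201 ± 3885, a fold of 1.09 with a 95% interval of 0.812 to 1.48 (DESeq2, unadjusted p = 0.551). The log2 fold change was 0.13 in all libraries, -0.11 without Adipoq-F2-KO 3 and -0.28 in the 5 deep libraries, none of them called.

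Ftl1 (chr7:45457944-45459884), the ferritin light chain, had 206 counts in all 8 libraries together against 102814 for Fth1. It had 29.1, 29.5, 10.5 and 29.4 normalized counts in floxed controls 1 to 4 and 8.68, 14.9, 32.0 and 15.04 in Adipoq-F2-KO 1 to 4. Floxed controls 1, 2 and 4 and Adipoq-F2-KO 3 were the high libraries, and the other 4 were at 15.04 or below. The mean was 24.6 ± 9.44 (SD, n = 4) against 17.7 ± 10.0, a fold of 0.659 with a 95% interval of 0.342 to 1.27 (DESeq2, unadjusted p = 0.214). In the 5 deep libraries the log2 fold change was -1.30 ± 0.48 (SE, DESeq2 unadjusted p = 0.00696, with no adjusted p given by DESeq2). It was -1.01 without Adipoq-F2-KO 3, but -0.35 without Adipoq-F2-KO 1 and -0.40 with the distal small intestine covariate, against -0.60 in all libraries.

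The level of Ftl1 is uncertain for another reason. Of the 1477 different stretches of 75 bases, the read length, in its annotated transcripts, 758 (51.3%) also occur, on either strand, in transcripts of 8 other genes, and in its first listed transcript 84.8% do. The share was 0.882% for Fth1, 2.85% for Slc11a2, 1.25% for Cybrd1 and 0 for the other 4 members. A stretch shared with an overlapping gene can lie at the same place in the genome, and would then not be several matches. Gm10252 (282 stretches) and Gm22133 (35) overlap Ftl1, and all 180 stretches shared by Slc11a2 are with Gm5475, which overlaps it. Ftl1-ps1, which shares 590 with Ftl1, does not overlap it. How reads with several matches were counted is not given in the sources used here. Of those 8 genes 7 were in the count table, with 79 counts together against 206 for Ftl1. Most of these lay in Gm10252, at 39, which overlaps Ftl1 on the opposite strand over 355 bp, and in Gm15590, at 32. The 1 gene that shared stretches with Fth1 held 7 counts.

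Slc40a1 (chr1:45908068-45926523), ferroportin, the only known cellular iron exporter, had 32.1, 32.2, 35.5 and 13.2 normalized counts in floxed controls 1 to 4 and 22.1, 36.0, 58.1 and 60.2 in Adipoq-F2-KO 1 to 4. Adipoq-F2-KO 2, 3 and 4 were above all floxed controls, number 2 barely so, and Adipoq-F2-KO 1 was below 3 of the 4. The mean was 28.2 ± 10.2 (SD, n = 4) against 44.1 ± 18.3, a fold of 1.54 with a 95% interval of 0.862 to 2.74 (DESeq2, unadjusted p = 0.146). These values rest on 295 counts in all, and the interval reaches from below to well above equal levels.

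The Slc40a1 estimate moved with single libraries and with depth. Its log2 fold change was 0.62 with all libraries, 0.86 without Adipoq-F2-KO 1 (DESeq2 unadjusted p = 0.0438, adjusted p = 1.00), 0.37 without floxed control 4 and 0.16 in the 5 deep libraries. Macrophages, which recycle iron, also express ferroportin. The macrophage list was detected in 11 of 11 genes, 7 of which could be tested, and the log2 fold changes of all 7 were above 0 with a median of 0.61 and none called (DESeq2), a median that was 0.26 without floxed control 4. Its summed normalized counts were 276, 459, 404 and 137 in floxed controls 1 to 4 and 309, 471, 450 and 583 in Adipoq-F2-KO 1 to 4. The lowest library was floxed control 4 and the highest Adipoq-F2-KO 4 for both the list and Slc40a1, and the part of these cells in the Slc40a1 values was not tested.

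Heph (chrX:96455359-96574485), the membrane-bound ferroxidase that works with ferroportin, was the steadiest of the genes. It had 6589, 6755, 7988 and 6848 normalized counts in floxed controls 1 to 4 and 7086, 6986, 6515 and 7056 in Adipoq-F2-KO 1 to 4. Floxed control 3 was the highest and Adipoq-F2-KO 3 the lowest. The mean was 7045 ± 638 (SD, n = 4) against 6911 ± 267, a fold of 0.982 with a 95% interval of 0.869 to 1.11 (DESeq2, unadjusted p = 0.772), the narrowest interval among the members. Per exon length, Heph was 132- to 611-fold above Slc40a1 within a library.

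Tfrc (chr16:32608920-32632794), the transferrin receptor, is found in the intestine mainly on the blood side of crypt cells. It had 1486, 1046, 1228 and 1024 normalized counts in floxed controls 1 to 4 and 1191, 1493, 1201 and 756 in Adipoq-F2-KO 1 to 4. The highest value of either group was nearly equal, and Adipoq-F2-KO 4 was the lowest of all. The mean was 1196 ± 214 (SD, n = 4) against 1160 ± 304, a fold of 0.972 with a 95% interval of 0.734 to 1.29 (DESeq2, unadjusted p = 0.845). Per exon length the ratio of the Tfrc to the Fth1 transcript was 0.0353 to 0.0880 in Adipoq-F2-KO and 0.0536 to 0.0683 in floxed controls.

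**Figure D4:**
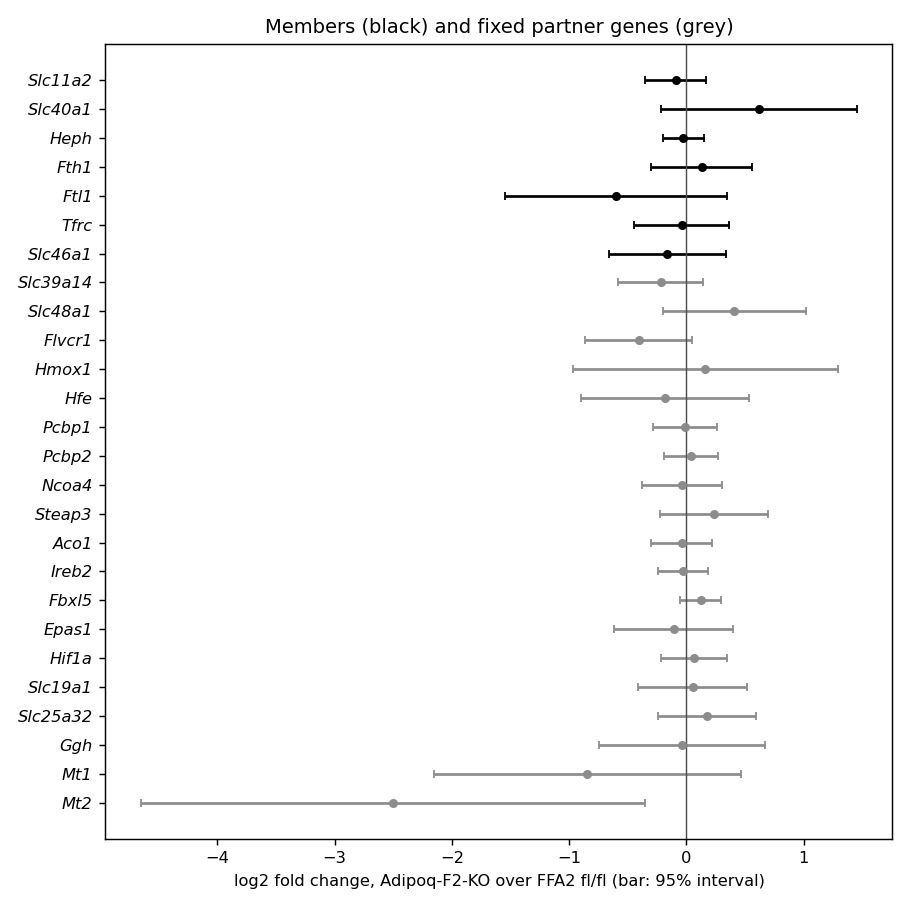
Log2 fold change of Adipoq-F2-KO over FFA2 fl/fl with its 95% interval (DESeq2, n = 4 per genotype) for the 7 tested members (black) and the tested partner genes (grey). Mt2, at -2.50, is the 1 interval that does not reach 0, and its adjusted p was 0.9998.

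Of 4 pairs of members examined over the 8 libraries, Cybrd1 and Slc40a1 had the closest relation. Pearson's r was 0.861 (exact permutation p = 0.00647, adjusted over 4 pairs p = 0.0259) and Spearman's rho 0.881 (exact permutation p = 0.00724, adjusted p = 0.0290). Without floxed control 4 and Adipoq-F2-KO 4, the libraries farthest from the Cybrd1 median, r fell to 0.479, while within the 5 deep libraries, which hold floxed control 4 but not Adipoq-F2-KO 4, it was 0.901. The relation therefore did not hold at the same strength in every subset. Slc11a2 and Tfrc had r = 0.707 (exact permutation p = 0.0450, adjusted p = 0.0900) and rho = 0.833 (exact permutation p = 0.0154, adjusted p = 0.0308), and r was 0.626 without Adipoq-F2-KO 1 and 4 and 0.689 in the deep libraries.

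Slc11a2 and Tfrc thus passed the adjustment by rho but not by r, and the remaining 2 pairs passed by neither. Fth1 and Ftl1 had r = 0.534 (exact permutation p = 0.181, adjusted p = 0.241), which fell to 0.0338 without floxed control 1 and Adipoq-F2-KO 3. Slc11a2 and Cybrd1, the transporter and the reductase of the same uptake step, had r = 0.0281 (exact permutation p = 0.950, adjusted p = 0.950), which was 0.553 without Adipoq-F2-KO 1 and 4 and 0.146 in the deep libraries.

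Among 8112 genes with a mean of at least 100 normalized counts, those whose log2 levels were most like each member over the 8 libraries are given as a description, since a search of this size finds high values in any case. Cybrd1 was most like Bgn (r = 0.979), a proteoglycan, Iqsec1 (0.966) and Apoe (0.959), an apolipoprotein. Slc46a1 was most like Hsd17b13 (0.962), a lipid droplet protein, Cyp2d26 (0.945), a cytochrome P450, and Retsat (0.932), a retinol saturase. Fth1 was most like Top3b (0.955), Cpox (0.945), an enzyme of heme synthesis, and Ephx1 (0.930), a xenobiotic epoxide hydrolase. Heph was most like Rbms2 (0.983), Aplp2 (0.969) and Ppp1r7 (0.966), and Slc11a2 most like Btbd6 (0.957), Ppa2 (0.940) and Zfp36l2 (0.915). For Slc40a1 the genes were Smarcc1 (0.966), Ctdp1 (0.945) and BC005537 (0.927), for Ftl1 Zgpat (0.960), Ubr7 (0.959) and Oxsm (0.958), and for Tfrc Srpr (0.928), Neurl3 (0.920) and Trappc2l (0.903).

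The regulators of these genes gave no call. The iron regulatory proteins Aco1 and Ireb2 had means of 4181 ± 690 and 2803 ± 202 normalized counts (SD, n = 4) in floxed controls, against 4070 ± 202 and 2751 ± 281 in Adipoq-F2-KO. Their log2 fold changes were -0.04 and -0.03, and that of Fbxl5, the iron-sensing ligase subunit that removes Ireb2, was 0.12 (95% interval -0.05 to 0.29). Epas1 had a log2 fold change of -0.11 in all libraries and -0.66 in the 5 deep ones (DESeq2 unadjusted p = 0.00946, adjusted p = 0.350), and Hif1a had 0.06. Of the 20 genes of the iron and oxygen sensing list, 15 could be tested and none was called, with 7 above 0, 8 below and a median of -0.02. Hamp, the hepatic hormone that removes ferroportin, had 0 to 4.18 normalized counts per library.

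Other carriers of iron and heme gave the same picture. Of 30 genes in the iron and heme transport list, 23 could be tested, 12 had log2 fold changes above 0 and 11 below, none had an unadjusted p below 0.05 and the median was 0.04. Slc39a14, a zinc and iron importer, had 3752 ± 855 normalized counts (SD, n = 4) in floxed controls against 3227 ± 532, a log2 fold change of -0.22. Slc48a1, a heme transporter of internal membranes, had 60.3 ± 26.8 and 77.9 ± 13.8 (log2 fold change 0.41, 95% interval -0.20 to 1.02). The ferritin receptor Ncoa4, the iron chaperones Pcbp1 and Pcbp2, the endosomal reductase Steap3 and the immune-like regulator Hfe had log2 fold changes of -0.04, -0.01, 0.04, 0.23 and -0.18. The heme oxygenase Hmox1 was low, with 85 counts in all libraries (log2 fold change 0.16), and Tfr2 had 9 counts and was not tested.

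The heme exporter Flvcr1 was called in 1 of the alternatives, the fit without floxed control 3, and no other of the 23 tested carriers was called in any fit. It had 2816, 3357, 1378 and 2544 normalized counts in floxed controls 1 to 4 and 1674, 2257, 1946 and 1747 in Adipoq-F2-KO 1 to 4. Floxed controls 1, 2 and 4 were above all Adipoq-F2-KO libraries, and floxed control 3 was below all of them. That library was shallow and held Fabp6, as did Adipoq-F2-KO 3 and 4, and it also had the highest smooth muscle sum, 22608 normalized counts against 285 to 7864 in the other 7, and the highest level of the adipocyte gene Adipoq, 123 against 0 to 54.1. The part of these in the Flvcr1 values was not tested. The log2 fold change was -0.41 ± 0.23 (SE, DESeq2 unadjusted p = 0.0815, adjusted p = 0.9998) with all libraries and -0.61 without floxed control 3 (adjusted p = 0.00941), a fit that called 103 genes, or 0.644% of all tested. Over the other alternatives that left out 1 library or added a covariate it ranged from -0.50 to -0.17 and was not called. The value of -0.17 was with the distal small intestine covariate, and that with the smooth muscle covariate was -0.36. In the 5 deep libraries the Flvcr1 change was -0.57 (DESeq2 unadjusted p = 0.00291, adjusted p = 0.188).

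Heme synthesis and iron-sulfur cluster assembly, the main uses of iron in a cell, held no called gene. All 11 heme synthesis genes were tested, with 5 above 0, 6 below and a median of 0.00, and 18 of 19 iron-sulfur genes were tested, with 5 above, 13 below and a median of -0.06. None of them had an unadjusted p below 0.05 (DESeq2). Of 15 hypoxia-inducible transcripts 14 were tested, with a median of 0.09. That median was 0.18 in the 5 deep libraries, 0.20 without floxed control 1 and -0.0022 without Adipoq-F2-KO 1. Of the 14, 1, the pyruvate dehydrogenase kinase Pdk1, had an unadjusted p below 0.05, against 3.03% of all tested genes (log2 fold change 0.38 ± 0.18, SE, DESeq2 unadjusted p = 0.0318, adjusted p = 0.9998).

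Among folate carriers and one-carbon enzymes most log2 fold changes were above 0 in Adipoq-F2-KO, and none was called. Of 25 genes 20 were tested, 16 had log2 fold changes above 0, against 48.5% of all tested genes, and 4 below, and the median was 0.12. The trifunctional enzyme Mthfd1 was the 1 gene of the 20 with an unadjusted p below 0.05 (3.03% of all tested genes), at 156, 151, 222 and 180 normalized counts in floxed controls 1 to 4 and 225, 221, 216 and 214 in Adipoq-F2-KO 1 to 4. Floxed controls 1, 2 and 4 were below all Adipoq-F2-KO libraries and the shallow floxed control 3 was within their range (log2 fold change 0.34 ± 0.16, SE, DESeq2 unadjusted p = 0.0325, adjusted p = 0.9998). The carriers Slc19a1 and Slc25a32 had log2 fold changes of 0.05 and 0.18, and the lysosomal hydrolase Ggh had -0.04. Folh1, the hydrolase that trims dietary polyglutamate folate in some species, had 0 counts in all 8 libraries, a result that allows up to 3 counts in each. The proliferation list, whose cells use one-carbon units, lay higher in Adipoq-F2-KO without overlap, at 2562 to 2823 summed normalized counts against 2183 to 2520, with 15 of 17 genes above 0, 4 of them at an unadjusted p below 0.05 (DESeq2, against 3.03% of all tested genes) and none called, and its part in the folate list was not tested.

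**Figure D5:**
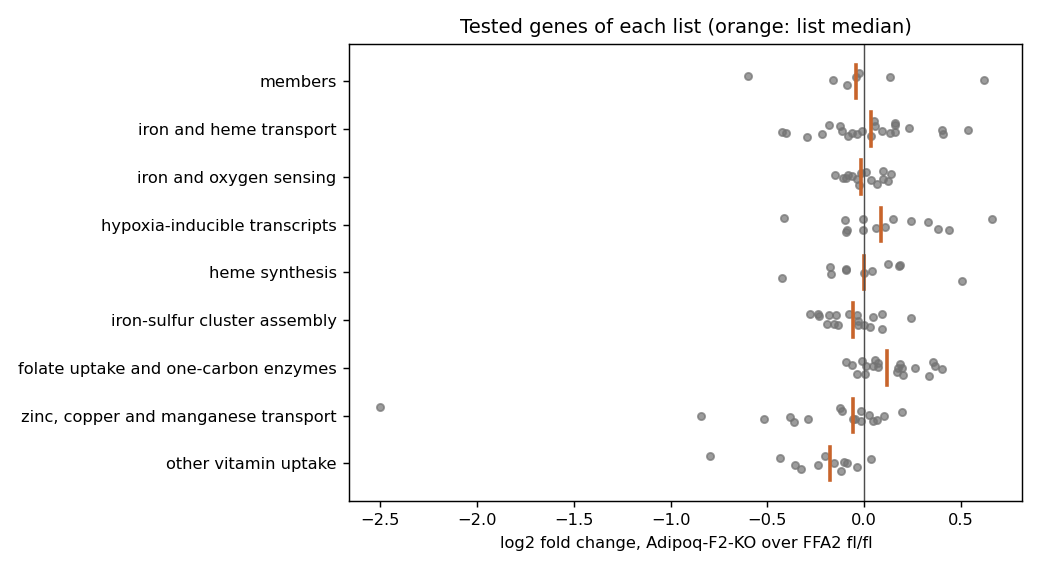
Log2 fold change of Adipoq-F2-KO over FFA2 fl/fl for the tested genes of the members and of the 8 pathway lists (grey points, 1 per gene, spread vertically only for display) and the list median (orange). The medians lie between -0.18 and 0.12, and Mt2 at -2.50 is the point farthest from 0.

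Transport of other metals and vitamins also gave no call. Among 17 genes for zinc, copper and manganese, all tested, 3 had an unadjusted p below 0.05 (DESeq2, against 3.03% of all tested genes), all with lower values in Adipoq-F2-KO, and the list median was -0.06. Slc30a2, a vesicular zinc transporter, had 886, 1102, 1098 and 1066 normalized counts in floxed controls 1 to 4 and 725, 732, 849 and 891 in Adipoq-F2-KO 1 to 4, so that the groups overlapped only in floxed control 1 and Adipoq-F2-KO 4. Its log2 fold change was -0.38 ± 0.12 (SE, DESeq2 unadjusted p = 0.00188, adjusted p = 0.742), and -0.34 to -0.45 when any 1 library was left out. Slc30a10, a manganese exporter that overlaps an antisense gene, had a log2 fold change of -0.52 ± 0.21 (SE, DESeq2 unadjusted p = 0.0128, adjusted p = 0.9998), which was -0.32 without floxed control 4.

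The metallothioneins, which bind zinc and copper, were set by 1 floxed control. Mt2 had 9.09, 188, 6.27 and 32.5 normalized counts in floxed controls 1 to 4 and 7.10, 18.6, 8.01 and 7.52 in Adipoq-F2-KO 1 to 4. Mt1 had 193, 1508, 238 and 574 against 315, 306, 416 and 365. The log2 fold changes were -2.50 for Mt2 (DESeq2 unadjusted p = 0.0224, adjusted p = 0.9998) and -0.85 for Mt1, and without floxed control 2 they were -0.63 and 0.05. Of 14 genes for other vitamins 12 were tested, 11 were below 0 and the median was -0.18, and 1 of the 12, the thiamine transporter Slc19a3, had an unadjusted p below 0.05, against 3.03% of all tested genes (log2 fold change -0.80 ± 0.39, SE, DESeq2 unadjusted p = 0.0416, adjusted p = 0.9998). It was -0.46 without floxed control 4 and -1.19 without Adipoq-F2-KO 2.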

How the data were processed

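Jejunal mucosa from 4 FFA2 fl/fl and 4 Adipoq-F2-KO mice was profiled by stranded poly-A RNA sequencing (single-end, 75 bp), and groups and replicate numbers came from the sample titles. The authors trimmed reads with Trimmomatic, aligned them with STAR and counted them per gene with featureCounts, and the deposited values are raw read counts per Ensembl gene. The submitters' processing notes name GRCm38 and mm10, while the annotation release, tool versions and strand setting are not given in the sources used here. Some identifiers are newer than GENCODE M21 (GRCm38), from which symbols, exon lengths and coordinates were taken. Of 56980 identifiers 52073 had a symbol.

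The 15986 genes that reached 10 counts in 4 or more libraries entered DESeq2 1.42.0 (Wald test, genotype alone, Benjamini-Hochberg adjustment, called at adjusted p below 0.05; 8 had no adjusted p). Per-kilobase levels used CPM of the library total, and log2 levels used a pseudocount of 1. Alternatives were TMM factors, no filter, edgeR 4.0.16 quasi-likelihood, limma 3.58.1 voom, a replicate block, smooth muscle or distal small intestine covariates, the 5 libraries with at least 10000000 counts, and leaving out each library. The code was tested on simulated data. Precision is limited by the total of 6007654 to 21712776 counts per library, and intervals rest on the spread between these samples.

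The text names all 8 members, a fixed set of partner genes, the 3 genes of lowest unadjusted p, if below 0.05, in each pathway list, and for each member the 3 genes of most similar level. A further partner is not reported here. Members and lists were chosen with earlier results of these data known.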

Additional observations from a re-analysis of the deposited data

Results flagged for a closer look

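There were 6 values that stood apart from the other 3 libraries of their group by Dixon's criterion, among 58 groups of 4 examined (29 genes in 2 genotypes), where chance flags about 1 group in 20. Slc40a1 was low in floxed control 4, at 13.2 normalized counts against 32.1 to 35.5. Ftl1 was low in floxed control 3, at 10.5 against 29.1 to 29.5. Fbxl5 was low in floxed control 3, at 2102 against 2313 to 2323. Slc19a1 was low in Adipoq-F2-KO 1, at 139 against 224 to 228. Mt2 was high in floxed control 2, at 188 against 6.27 to 32.5, and in Adipoq-F2-KO 2, at 18.6 against 7.10 to 8.01.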

How the results depend on the processing

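No member with an adjusted p was called under any of 16 alternatives. Cybrd1 could be fitted only without the filter, and Slc40a1 and Ftl1 had no adjusted p in the 5 deep libraries. The number of genes called, 6 as reported, was 3 with no filter, 2 with edgeR, 1 with limma-voom, 2 with the distal small intestine covariate, 78 in the 5 deep libraries and 2 to 103 with 1 library left out, the highest without floxed control 3. Members at an unadjusted p below 0.05 (0 as reported) numbered 2 in the deep libraries and 0 to 1 with 1 library left out. Members without overlap (0 as reported) numbered 3 in the deep libraries and 0 to 1 with 1 left out (Slc40a1, without Adipoq-F2-KO 1). With no length scaling 2 members, Ftl1 and Slc40a1, exchanged ranks. Same-numbered libraries deviated together for numbers 1 and 2 (r = 0.542 and 0.294, each the best match of that floxed control) but not for 3 and 4 (0.0113 and -0.423), so the numbers were not taken to pair the samples; a replicate block gave 11 calls, no member among them. Of 496 gene and alternative combinations over 31 named genes, 447 kept their sign and side of the threshold, 8 kept their sign but had no adjusted p, 1 (Flvcr1) passed it and 40 changed sign without being called.

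The values that changed sign follow. In the deep libraries log2 fold changes were 0.0600 for Heph, -0.276 for Fth1, 0.176 for Tfrc, 0.0587 for Pcbp1, -0.0117 for Hif1a, -0.238 for Slc19a1 and -0.0926 for Slc25a32. With the distal covariate they were 0.00250 for Slc46a1, 0.0334 for Pcbp1, 0.0981 for Ncoa4 and 0.0517 for Aco1, with the smooth muscle covariate 0.00752 for Ncoa4, and with limma-voom -0.0429 for Slc19a1. With 1 library left out they ranged from -0.0563 to 0.0386 for Heph, -0.106 to 0.287 for Fth1, -0.187 to 0.115 for Tfrc, -0.332 to 0.0388 for Slc46a1, -0.0870 to 0.431 for Hmox1, -0.132 to 0.0692 for Pcbp1, -0.0285 to 0.103 for Pcbp2, -0.168 to 0.0457 for Ncoa4, -0.142 to 0.0327 for Aco1, -0.0802 to 0.0428 for Ireb2, -0.284 to 0.0571 for Epas1, -0.0201 to 0.163 for Hif1a, -0.0909 to 0.204 for Slc19a1, -0.256 to 0.132 for Ggh and -1.14 to 0.0539 for Mt1. On CPM, r of Slc11a2 and Cybrd1 was -0.101. The cause of these shifts was not tested.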
